A study of Homo sapiens with 6 samples.

Results

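The genes of the liver X receptor (LXR) pathway, of cholesterol efflux and of cholesterol esterification were followed in HK-2 cells exposed to oxidized low-density lipoprotein (OX-LDL). The set held 10 genes chosen by symbol from the 58825 genes of the table: the receptors NR1H2 and NR1H3, the efflux genes ABCA1, ABCG1 and APOE, the receptor-degrading ligase MYLIP, the esterase and acyltransferase genes SOAT1, NCEH1 and LIPA, and the phospholipid acyltransferase LPCAT3. HK-2 cells come from human proximal tubular epithelium and were immortalized for culture. The Control group held 3 libraries of cells labelled untreated, with no time given, and the OX-LDL group held 3 libraries of cells kept for 48 h in OX-LDL at 25 μg/ml. Per the study's methods, cells were starved in low serum before treatment. Nothing in the labels ties a library to a separate culture beyond its replicate number, so p-values measure the spread between these libraries, which may be technical. Because poly(A) RNA of whole cultures was sequenced, fewer cells of a type and less RNA per cell cannot be told apart.

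LXRs are nuclear receptors that bind oxysterols, the oxidized derivatives of cholesterol, and activate transcription together with retinoid X receptors. Their target genes export cholesterol from the cell, lower lipoprotein uptake and change membrane phospholipids. Cholesterol that stays in the cell is esterified in the endoplasmic reticulum and stored in lipid droplets, from which hydrolases release it again. ABCA1 and MYLIP are textbook LXR targets, but not the only ones in the set. The bases upstream of their start sites are shown because both genes rose with OX-LDL, so the pair was picked by its values. It does not stand for the set, in which APOE was lower, LPCAT3 was not called and ABCG1 was not detectable. The sequences are the 250 bases before the RefSeq start site on GRCh38.p14, 5′ to 3′ in the direction of the gene, at chr9:104928156-104928405 on the minus strand for ABCA1 and chr6:16128836-16129085 on the plus strand for MYLIP. Capitals in ABCA1 mark, in order, an E-box (CACGTG) and a DR4-type match.
ABCA1: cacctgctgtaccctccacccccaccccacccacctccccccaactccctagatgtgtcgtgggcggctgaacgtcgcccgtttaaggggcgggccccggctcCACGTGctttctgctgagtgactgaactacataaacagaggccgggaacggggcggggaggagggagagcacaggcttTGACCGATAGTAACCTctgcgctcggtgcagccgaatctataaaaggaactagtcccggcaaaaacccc
MYLIP: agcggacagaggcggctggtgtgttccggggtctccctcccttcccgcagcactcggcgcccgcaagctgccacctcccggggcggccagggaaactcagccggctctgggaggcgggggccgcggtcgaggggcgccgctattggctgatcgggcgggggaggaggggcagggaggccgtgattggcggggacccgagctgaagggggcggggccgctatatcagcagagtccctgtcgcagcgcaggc
The DR4 pattern was AGGTCA repeated after a gap of 4 bases, with at most 2 mismatches over its 12 fixed bases, read on both strands. In ABCA1 it lay on the strand opposite to the gene from -69 to -54 relative to the start site, with 2 mismatches, and the E-box lay from -147 to -142. The matches did not overlap. MYLIP held neither pattern. A sterol response element (TCACNCCAC) was searched as well and was found in neither. RefSeq windows of 300 bases around the start site were at hand for 9 of the 10 genes, and ABCA1 was the only one of them with a match to any of the patterns. Among all 35116 windows, 2.34% held the DR4 pattern, 1.13% the sterol response element and 7.26% the E-box.

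Of the 10 genes, 9 passed the minimum mean of 0.1 FPKM (fragments scaled for transcript length and library size) that set the 19510 genes tested. ABCA1, MYLIP, NCEH1 and LIPA were higher in OX-LDL, and NR1H2 and APOE were lower. NR1H3, SOAT1 and LPCAT3 did not pass the test. A gene was called at an adjusted p-value under 0.05 by edgeR's quasi-likelihood test with Benjamini-Hochberg adjustment over all genes tested. Over all of these genes, 15.3% were called, 7.91% higher and 7.42% lower. The groups did not overlap in FPKM for 7 of the 9 genes, 4 higher and 3 lower, against 37.2% of all genes tested, 16.8% higher and 20.5% lower. The study's own fold rule was a fold change above 2 or below 0.5 with a p-value under 0.05. Its results do not say whether that p-value was adjusted, while its methods name adjusted p-values. Taken with the unadjusted edgeR p-value, the rule was met by ABCA1 alone among the 9, and by 6.36% of all genes tested (3.19% higher). The median log2 fold change was -0.06 over the 9 genes and -0.0043 over all genes tested, with members on both sides of 0.

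**Figure D1:**
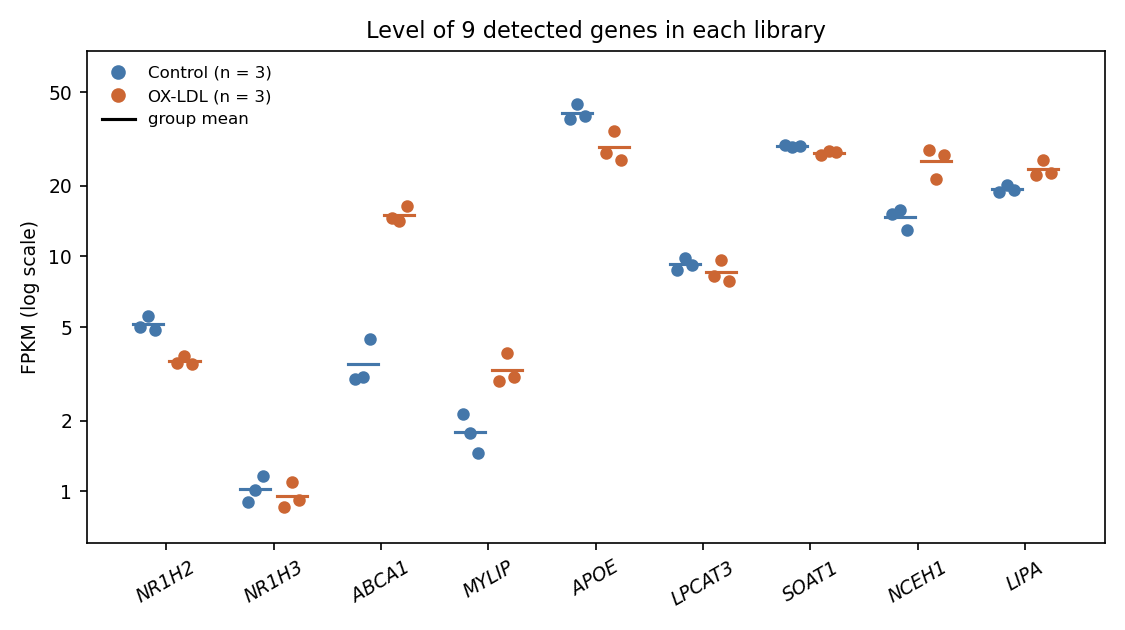
Level of the 9 detected genes in each library, as FPKM on a log axis. Points are libraries (Control blue, OX-LDL orange, n = 3 each) and lines are group means. ABCA1 stands at 3.00 to 4.43 FPKM in Control and 14.2 to 16.3 FPKM in OX-LDL, while the NR1H3 and LPCAT3 groups overlap.

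Of the receptors, NR1H2 lay at the 63.3 percentile and NR1H3 at the 37.1 percentile of the levels of all genes tested. NR1H2 (LXRβ, ENSG00000131408, chr19:50329653-50383387, plus strand), the broadly expressed receptor, stood at 5.00, 5.60 and 4.85 FPKM in Control, against 3.52, 3.76 and 3.49 FPKM in OX-LDL. Every OX-LDL library was below every Control library, and the group means were 5.15 ± 0.396 and 3.59 ± 0.151 FPKM (SD, n = 3 each). The log2 fold change was -0.49 (SE 0.09, 95% interval -0.71 to -0.26, edgeR adjusted p = 0.0185). The call was lost without Control 1 (adjusted p = 0.0501), Control 2 (0.0666), OX-LDL 1 (0.0689) or OX-LDL 3 (0.0744), with the log2 fold change between -0.53 and -0.43.

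NR1H3 (LXRα, ENSG00000025434, chr11:47248300-47268845, plus strand) is the receptor best known from liver, fat and macrophages. It stood at 0.899, 1.01 and 1.17 FPKM in Control, against 0.859, 1.10 and 0.921 FPKM in OX-LDL. The groups overlapped, with a log2 fold change of -0.06 (SE 0.18, 95% interval -0.48 to 0.36, edgeR adjusted p = 0.855), an interval that leaves room for a change of either sign. NR1H3 was the lowest of the 9 detected genes in both groups. Its FPKM was 0.200 ± 0.0344 of that of NR1H2 in Control and 0.267 ± 0.0239 in OX-LDL, and the ratio was higher in every OX-LDL library than in every Control library.

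ABCA1 (ENSG00000165029, chr9:104781006-104928155, minus strand) encodes the transporter that loads cholesterol and phospholipid onto lipid-poor apolipoprotein A-I. It stood at 3.00, 3.06 and 4.43 FPKM in Control, against 14.5, 14.2 and 16.3 FPKM in OX-LDL. The lowest OX-LDL library lay above the highest Control library, Control 3, by a wide margin. The mean went from 3.50 ± 0.807 to 15.0 ± 1.16 FPKM (SD, n = 3 each). The fold change was 4.39 (95% interval 3.33 to 5.78), a log2 fold change of 2.13 (SE 0.17, edgeR adjusted p = 0.00148). Among the 12259 genes whose mean reached 1 FPKM, ABCA1 ranked 28 in order of rise. The call held without each library in turn, with a log2 fold change of 2.04 to 2.34.

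ABCG1 (ENSG00000160179, chr21:42199689-42297244, plus strand), which exports cholesterol to mature high-density lipoprotein and is another textbook LXR target, was not detectable at this depth. Its counts were 12, 0 and 0 in the Control libraries and 0, 0 and 8 in the OX-LDL libraries. About 4 deposited counts stand for 1 read pair, so these are at most 3 read pairs in any library. That floor of 12 counts equals 0.192 CPM (counts scaled to the library total) in the shallowest library. It is the floor rescaled and not an upper limit on the level, since counting error was not added. No fold is given because both groups were at or under the floor.

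APOE (ENSG00000130203, chr19:44905791-44909393, plus strand), the apolipoprotein that accepts effluxed cholesterol, had the highest mean of the set over all libraries, at the 95.1 percentile of all genes tested, and the highest level in each Control library but not in OX-LDL 1 or OX-LDL 3. It stood at 38.4, 44.6 and 39.8 FPKM in Control, against 27.5, 34.2 and 25.7 FPKM in OX-LDL. The groups did not overlap, although OX-LDL 2 came near Control 1. The means were 40.9 ± 3.27 and 29.1 ± 4.46 FPKM, and the log2 fold change was -0.46 (SE 0.12, 95% interval -0.75 to -0.17, edgeR adjusted p = 0.0483). APOE thus moved opposite to ABCA1. Its call was kept without OX-LDL 2 (adjusted p = 0.0135) and lost without each of Control 1, Control 2, Control 3, OX-LDL 1 and OX-LDL 3 (0.0878 to 0.148).

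MYLIP (IDOL, ENSG00000007944, chr6:16129086-16148248, plus strand) encodes a ubiquitin ligase that sends lipoprotein receptors to degradation. Its levels were 2.13, 1.77 and 1.45 FPKM in Control, against 2.95, 3.87 and 3.06 FPKM in OX-LDL. All OX-LDL libraries lay above all Control libraries, with OX-LDL 2 the highest. The means were 1.78 ± 0.341 and 3.29 ± 0.503 FPKM and the fold change was 1.89, a log2 fold change of 0.92 (SE 0.20, 95% interval 0.45 to 1.38, edgeR adjusted p = 0.0263). The call held without Control 1 (adjusted p = 0.0337) and was lost without each of Control 2, Control 3, OX-LDL 1, OX-LDL 2 and OX-LDL 3 (0.0529 to 0.0914).

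**Figure D2:**
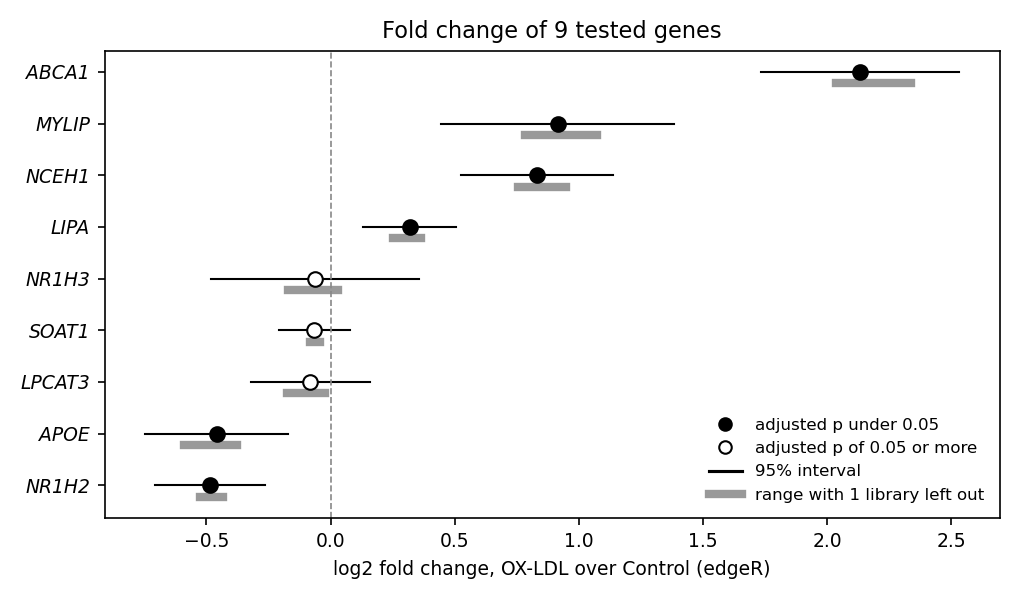
Log2 fold change of OX-LDL over Control for the 9 tested genes, from edgeR. Circles are filled where the adjusted p is under 0.05, thin lines are 95% intervals and grey bars the range of estimates with 1 library left out. ABCA1 stands at 2.13, and only the grey bar of NR1H3 crosses 0.

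In the cholesterol ester cycle, the hydrolases NCEH1 and LIPA were called higher and the acyltransferase SOAT1 was not called. SOAT1 (ACAT1, ENSG00000057252, chr1:179293714-179358677, plus strand) esterifies free cholesterol in the endoplasmic reticulum. It stood at 29.9, 29.2 and 29.4 FPKM in Control, against 27.0, 28.0 and 27.7 FPKM in OX-LDL. Replicates lay so close together that the groups did not overlap, yet the log2 fold change was only -0.07 (SE 0.06, edgeR adjusted p = 0.523). The 95% interval of the fold change, 0.865 to 1.05, leaves room for no more than a small change.

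NCEH1 (ENSG00000144959, chr3:172630249-172711218, minus strand), a neutral hydrolase for cholesterol esters described mainly in macrophages, was at 15.2, 15.8 and 13.0 FPKM in Control, against 28.5, 21.3 and 26.9 FPKM in OX-LDL. The groups did not overlap, and OX-LDL 2 was the lowest of the treated libraries. The means were 14.6 ± 1.48 and 25.5 ± 3.78 FPKM. The fold change was 1.78, a log2 fold change of 0.83 (SE 0.13, 95% interval 0.53 to 1.14, edgeR adjusted p = 0.00986). Like that of ABCA1, the call held without each library in turn, with a log2 fold change of 0.75 to 0.95.

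LIPA (ENSG00000107798, chr10:89213569-89414557, minus strand) encodes the lysosomal acid lipase that hydrolyses cholesterol esters of incoming lipoproteins. It stood at 18.8, 20.0 and 19.1 FPKM in Control, against 22.3, 25.6 and 22.7 FPKM in OX-LDL. The groups did not overlap, and the means were 19.3 ± 0.648 and 23.5 ± 1.81 FPKM. The rise was small, a fold change of 1.25 and a log2 fold change of 0.32 (SE 0.08, 95% interval 0.13 to 0.51, edgeR adjusted p = 0.0398). The call was lost whichever of the 6 libraries, Control 1 to 3 or OX-LDL 1 to 3, was left out (adjusted p = 0.0567 to 0.106). In GENCODE release 29, 65 exon bases of LIPA lay opposite IFIT2, which fell, and 135 opposite AL353751.1, out of 4910. The share of their reads counted for LIPA was not tested.

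LPCAT3 (ENSG00000111684, chr12:6976185-7018477, minus strand) places polyunsaturated fatty acids in membrane phospholipids. It stood at 8.75, 9.87 and 9.22 FPKM in Control, against 8.22, 9.64 and 7.84 FPKM in OX-LDL. The groups overlapped, with a log2 fold change of -0.08 (SE 0.10, 95% interval -0.32 to 0.16, edgeR adjusted p = 0.643). The value is uncertain, since 65.6% of the exon bases of LPCAT3 lay opposite exons of EMG1 and the use of strand in counting is not given in the sources used here. EMG1 itself was not called, with means of 9.47 and 10.3 FPKM (log2 fold change 0.15, adjusted p = 0.223). NR1H3 shared 4.17% of its exon bases with ACP2 on the opposite strand and APOE shared 0.867% with AC011481.3 on its own strand, while the other 6 genes shared no exon base with another gene in that annotation.

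**Figure D3:**
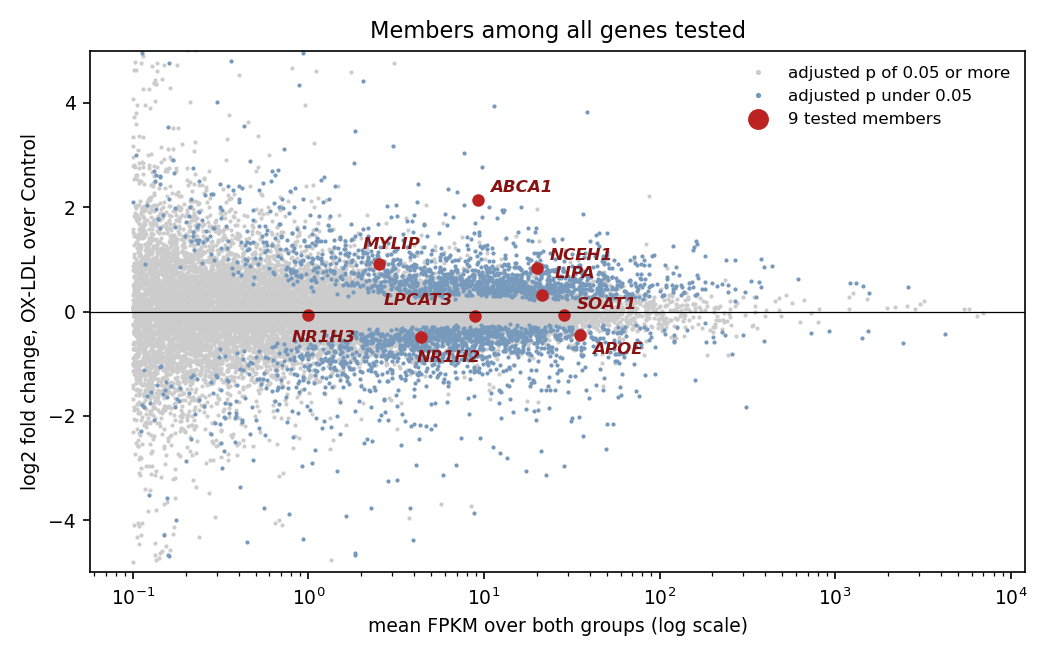
Log2 fold change against mean FPKM (log axis) for the 19510 genes tested, with genes called by edgeR in blue, others in grey and the 9 tested members in red. ABCA1 lies near the upper edge of genes at its level, the other members lie nearer to 0, and 106 genes beyond 5 in either direction are outside the plot.

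Since FPKM is per length, levels can be set side by side. In Control the order was APOE, SOAT1, LIPA, NCEH1, LPCAT3, NR1H2, ABCA1, MYLIP, NR1H3 and ABCG1, and the 3 libraries of each gene were separate from those of its neighbours. In OX-LDL, ABCA1 stood next after those 4 abundant genes (APOE, SOAT1, NCEH1 and LIPA) and above LPCAT3 and NR1H2. The ranges of APOE and SOAT1, of SOAT1 and NCEH1, and of NCEH1 and LIPA overlapped there, so the order of these neighbours is not set. MYLIP and NR1H2 overlapped as well, whereas NR1H2 was the higher gene in every Control library. NCEH1 was at 0.507, 0.541 and 0.442 of the FPKM of SOAT1 in Control and at 1.05, 0.760 and 0.971 in OX-LDL.

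The ratio of ABCA1 to SOAT1 went from 0.119 ± 0.0278 to 0.544 ± 0.0419 (n = 3 each), 4.66-fold. The ratio of NCEH1 to SOAT1 went from 0.497 ± 0.0504 to 0.928 ± 0.151. That of SOAT1 to LIPA went from 1.53 ± 0.0683 to 1.17 ± 0.0709. None of the 4 ratios overlapped between the groups. The two-sided exact permutation test gave p = 0.1 for each, also after adjustment over the 4, which is the smallest value that 3 against 3 libraries allow, so none can pass 0.05. These ratios restate the member values above and add no independent measurement.

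**Figure D4:**
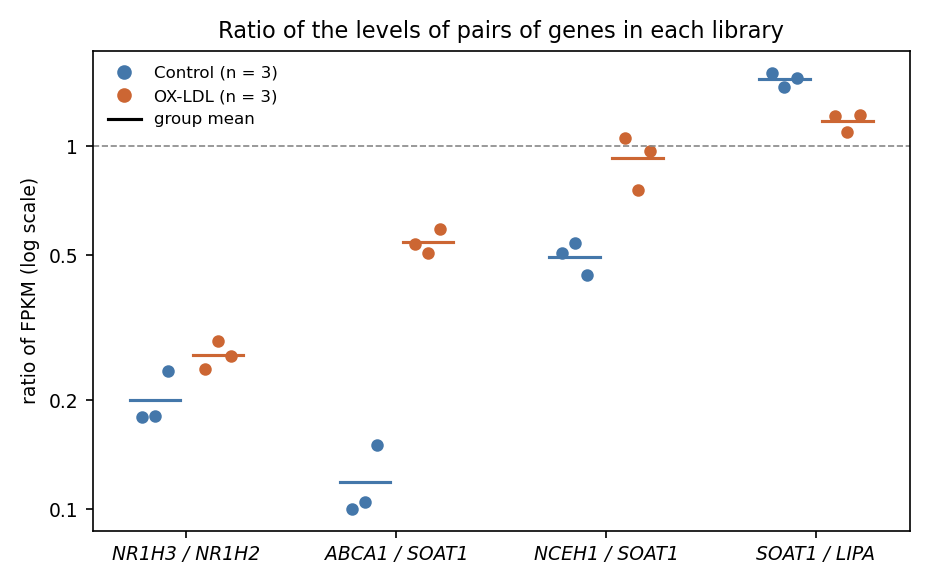
Ratio of FPKM between pairs of genes in each library, on a log axis, with Control in blue, OX-LDL in orange (n = 3 each) and lines at group means. ABCA1 over SOAT1 goes from a mean of 0.119 to 0.544, and the dashed line marks equal levels.

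Other LXR target genes were called in both directions, and the calls of this and the following lists stand against 15.3% of all genes tested, 7.91% higher and 7.42% lower. Of 15, 8 were tested, 2 were called higher, 1 lower and 5 neither way, with a median log2 fold change of 0.02. SCD, the Δ9 desaturase, went from 119 ± 16.3 to 245 ± 59.4 FPKM (log2 fold change 1.07, SE 0.19, adjusted p = 0.0134), and FASN, fatty acid synthase, from 6.79 ± 0.952 to 15.4 ± 3.43 FPKM (1.21, SE 0.18, adjusted p = 0.00878). Both are also targets of sterol regulatory element-binding proteins. MERTK, a receptor for apoptotic cells, fell from 5.48 ± 0.425 to 4.03 ± 0.224 FPKM (-0.41, SE 0.10, adjusted p = 0.0375). SREBF1, the LXR target that drives fatty acid synthesis genes, was at 3.28 ± 0.371 and 4.23 ± 0.372 FPKM and was not called (0.40, SE 0.12, adjusted p = 0.0706). LPL, CETP, APOC2, APOC4, ABCG5, ABCG8 and CD5L were under the minimum level.

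Of 13 dimer partners and coregulators of LXR, 12 were tested, 1 was called higher, 1 lower and 10 neither way (median -0.05). NCOR1, a corepressor of unliganded nuclear receptors, fell from 10.2 ± 0.707 to 7.34 ± 0.552 FPKM (adjusted p = 0.0242), and HDAC3, the deacetylase of the same complex, rose from 8.14 ± 0.131 to 10.4 ± 0.575 FPKM (adjusted p = 0.0185). RXRA, a dimer partner of the LXRs, was at 3.45 ± 0.178 and 3.82 ± 0.580 FPKM (0.18, adjusted p = 0.370). Of 8 enzymes that make or remove oxysterol ligands, 3 were tested, 1 was called higher and 2 neither way (median 0.41).

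Of 10 other genes of lipid transporters, efflux acceptors, HDL receptors and plasma cholesterol esterification, 6 were tested, with 1 called higher, 1 lower and a median of 0.28. LCAT, which esterifies cholesterol in plasma lipoproteins, rose from 0.328 ± 0.0839 to 0.664 ± 0.0284 FPKM (adjusted p = 0.0468), and ABCA3, a lamellar body lipid transporter, fell from 5.55 ± 0.776 to 3.41 ± 0.141 FPKM (adjusted p = 0.0111). Among genes of cholesterol transport through late endosomes and contact sites, 14 of 15 were tested and 3 were called, all higher (median 0.18). These were LAMP2, a lysosomal membrane protein (log2 fold change 0.40, adjusted p = 0.0134), STARD4, a sterol carrier (0.54, adjusted p = 0.0225), and OSBP, which exchanges sterol at Golgi contacts (0.35, adjusted p = 0.0406).

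In the list of other sterol ester and droplet genes, 5 of 7 were tested and 1 was called, the droplet coat gene PLIN3, from 13.2 ± 1.38 to 23.3 ± 3.45 FPKM (adjusted p = 0.00995, median of the list 0.16). SOAT2, the second sterol acyltransferase, was under the minimum level. Among other lysophospholipid acyltransferases, 6 of 7 were tested and 2 were called, both higher (median 0.32). LPCAT1, which makes saturated phosphatidylcholine, stood at 10.5, 8.69 and 10.7 FPKM in Control, against 26.7, 33.7 and 28.4 FPKM in OX-LDL (log2 fold change 1.60, SE 0.13, adjusted p = 0.00157), unlike LPCAT3. MBOAT2 followed at 0.47 (adjusted p = 0.0163).

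All 8 substrates and partners of MYLIP were tested, with 3 called higher, 5 neither way and a median of 0.18. LRP8, a lipoprotein receptor that MYLIP degrades as protein, stood at 2.87, 2.05 and 2.77 FPKM in Control, against 4.43, 4.62 and 4.80 FPKM in OX-LDL (log2 fold change 0.88, SE 0.14, adjusted p = 0.0113). The groups did not overlap, and the mRNA of ligase and substrate was higher in the same libraries. Of 11 SREBP2 targets of sterol synthesis, all tested, 7 were called higher and none lower (median 1.13). MVD, a decarboxylase of the mevalonate pathway, rose from 1.92 ± 0.178 to 4.202 ± 0.253 FPKM (log2 fold change 1.16, adjusted p = 0.00275), and FDFT1, squalene synthase, from 13.4 ± 0.786 to 28.6 ± 4.35 FPKM (1.13, adjusted p = 0.00405).

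Over the 9 lists, 73 of 94 genes were tested, with 21 called higher (28.8%), 3 lower (4.11%) and 49 neither way, a median log2 fold change of 0.22. The share called was 16.7% for the partners and coregulators, near that of all genes tested, and 63.6% for the SREBP2 targets. No list was tested against the other genes. Of the called list genes named here, FASN, PLIN3, LPCAT1, LRP8, MVD and FDFT1 kept their call without each library in turn. The others lost it in at least 1 of these fits. SCD lost it only without Control 2 (adjusted p = 0.0582) and ABCA3 only without OX-LDL 3 (0.0514). LCAT lost it whichever of the 6 libraries was left out, LAMP2 without Control 2 or OX-LDL 3, and MBOAT2 without OX-LDL 1 or OX-LDL 3. STARD4 lost it without Control 2, Control 3 or OX-LDL 3, and OSBP without these or OX-LDL 1. HDAC3 lost it without Control 1, Control 2, OX-LDL 1 or OX-LDL 3, NCOR1 without Control 1, Control 3, OX-LDL 1 or OX-LDL 3, and MERTK whichever library other than OX-LDL 2 was left out.

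**Figure D5:**
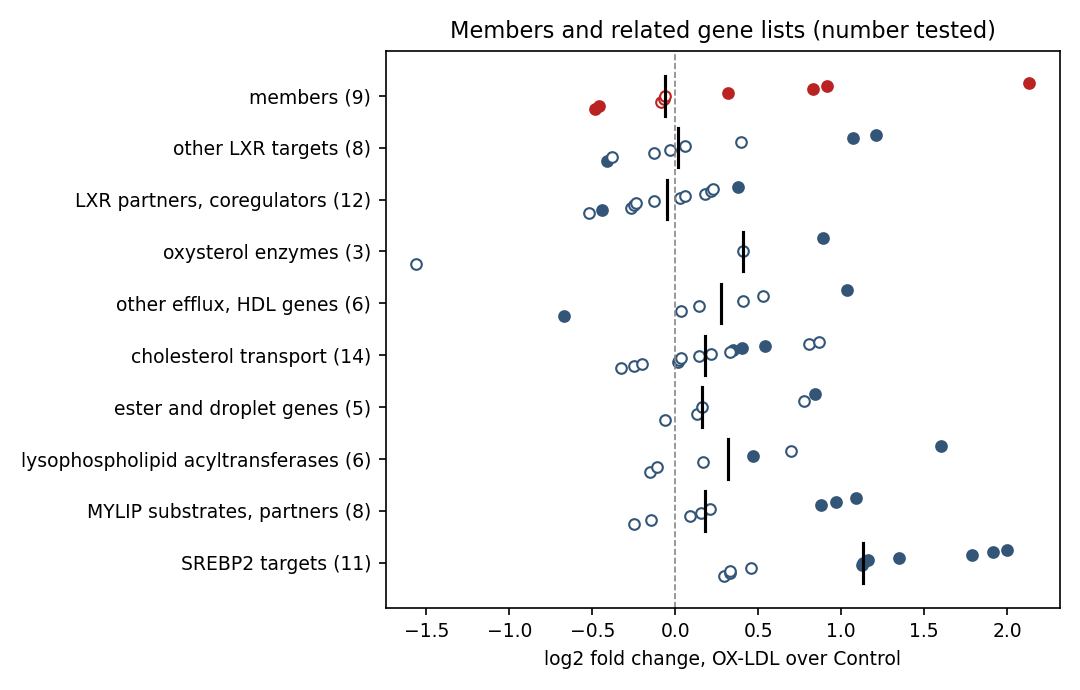
Log2 fold change of OX-LDL over Control for the 9 tested members (red) and for each related list (blue, number tested in brackets). Filled circles were called by edgeR and black bars are medians, which lie at -0.06 for the members, 0.02 for the other LXR targets and 1.13 for the SREBP2 targets.

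Cell identity was checked with markers. Of 13 tubular epithelial markers, 7 reached a mean of 1 FPKM, and the whole list summed to 205.7 to 229.0 FPKM in the Control libraries and 245.1 to 283.3 FPKM in the treated ones. Members of this list were called in both directions. PAX8, a transcription factor of tubular epithelium, fell (log2 fold change -1.23, adjusted p = 0.0182), the keratins KRT19 (1.94, adjusted p = 0.00207) and KRT8 (0.83, adjusted p = 0.0116) and the cadherin CDH6 (1.36, adjusted p = 0.00475) rose, and EPCAM was at 51.2 ± 3.68 and 53.1 ± 3.13 FPKM without a call. The proximal tubule markers LRP2, CUBN, SLC34A1, AQP1 and ANPEP stood at or under 0.142 FPKM in each library, with LRP2 at 0 counts. GGT1, a brush border enzyme on the same list, was detected in every library, at 21.4, 18.3 and 26.5 FPKM in Control and 15.9, 17.7 and 16.1 FPKM in OX-LDL, summed over 2 identifiers among which the table splits it. Of 6 macrophage markers, CD68 alone reached 1 FPKM, and the sum of the list ran from 2.82 to 7.60 FPKM across Control and from 8.95 to 13.8 FPKM across OX-LDL. CD68 is also a lysosomal gene of other cells and was not called (log2 fold change 1.08, adjusted p = 0.0858). CD163 was at 0 counts in all libraries and PTPRC at 8 counts in OX-LDL 1 and 0 elsewhere. LYZ reached at most 8 counts and MRC1 at most 12. CSF1R, on the same list, went the other way, with 9, 12 and 4 counts in Control and 65, 16 and 94 in OX-LDL. Its FPKM was 0.0176 ± 0.00807 and 0.131 ± 0.0877, under the minimum mean, so it was not tested. The study names CSF1R among inflammatory genes that rose. The part of CD68 in the rise of ABCA1, NCEH1 and LIPA, genes also known from macrophages, was not tested. The 4 endothelial markers summed to at most 0.0959 FPKM, and of 6 fibroblast markers only LUM reached 1 FPKM, the sums being 10.1 to 12.01 and 8.77 to 14.1 FPKM.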

How the data were processed

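RNA-seq was performed by the authors on poly(A) RNA of 6 HK-2 libraries (3 Control, 3 OX-LDL, grouped by title), with a dUTP kit and paired ends. The submitters' processing notes name cutadapt 1.9, HISAT2 2.0.4, StringTie 1.3.4d, edgeR, DESeq2 and GRCh38. The authors deposited estimated counts, unscaled whole numbers at about 4 per read pair (totals of 62561347 to 76797607 per library), and FPKM values. How FPKM was computed is not given in the sources used here. The gene length implied by the 2 units varied between libraries by 0.103% for the median gene over 100 counts in every library. For NR1H3 it varied by 1.98%. The 2 units are thus not independent. The authors listed a count of 0 at 0.0001 FPKM. Intervals cover only the spread between libraries.

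Counts were fitted with edgeR 4.0.16 (R 4.3.3; TMM, glmQLFit, glmQLFTest, group as the only term) on 19510 genes whose mean FPKM reached 0.1, with Benjamini-Hochberg adjustment over all of them. Each standard error was obtained from the log2 fold change and its F statistic (fold change over root F). The script was tested on simulated data. Alternatives were DESeq2 1.42.0, limma 3.58.1 on log2(FPKM + 0.1, 1 or 0.01), other scalings and filters, counts divided by 4, a replicate block and leaving out each library. All 10 members were named, with at most 3 called genes of smallest p per list plus SREBF1 and RXRA, except that some list genes are not reported here; EMG1, IFIT2, AL353751.1, ACP2 and AC011481.3 were named after values were seen, for overlapping exons. The members and the lists were chosen with earlier results of these data known. Coordinates are the table's; GENCODE release 29 held 58552 of its identifiers and gave the same coordinates for 81.2% of them and for 3 of the 10 members. The chi-square per gene between libraries of 1 group lay between 14.9 and 25.6, far above sampling noise, so no library appears to be a copy.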

Additional observations from a re-analysis of the deposited data

How the results depend on the processing

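ABCA1 and NCEH1 were called under all 16 alternatives (log2 fold change 1.84 to 2.34 and 0.75 to 0.95). NR1H2 was called in 12, MYLIP and APOE in 10 each and LIPA in 4. SOAT1 and LPCAT3 were called in none, nor was NR1H3 in the 15 that held it (its mean is under 1 FPKM), and the log2 fold change of NR1H3 ranged from -0.17 to 0.031 with 1 library left out, being reversed without Control 3 (0.031) and OX-LDL 1 (0.016). Outside the fits that left out a library, APOE lost its call without a minimum FPKM (adjusted p = 0.0646), where 1 member was called lower, and LIPA lost it there (0.0728), under limma (0.0537 to 0.0553) and without normalization factors (0.0527). Leaving out 1 library gave 1161 to 2943 genes called over the table (2991 in full), 2 to 3 members called higher, 0 to 2 lower and 13 to 24 list genes called. DESeq2 called 4430 genes and limma 2851 to 2925. Same-numbered libraries of the 2 groups did not deviate together (correlations -0.041, -0.003 and 0.036). With 3 libraries a group this cannot show whether the numbers pair the samples, and the labels do not say. With the replicate number as a block, 1636 genes were called and 2 members were called higher, MYLIP (0.0617) and LIPA (0.0777) being lost, with 2 members lower and 16 list genes. With 3 libraries a group, small changes of low genes such as NR1H3 cannot be resolved, and ABCG1 was under the floor.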
